A study of Mus musculus with 8 samples.

Results

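The genes described here encode histone-modifying enzymes, the proteins that add or remove acetyl and methyl groups on histones. They were the genes whose annotated symbol begins with Hdac, Sirt, Kdm, Kmt2, Ezh, Setd, Prmt, or Kat and a digit, and 66 of the 19856 genes of the array table met this rule. Kdm3a, Kdm5c, Kdm5d and Kdm6a were left out by the rule and were not analysed here. By family there were 14 Kdm demethylase genes, 11 Hdac deacetylase genes, 10 Setd genes with Setdb1 and Setdb2 among them, 8 Kat acetyltransferase genes, 8 Prmt arginine methyltransferase genes, 7 Sirt deacylase genes, 5 Kmt2 methyltransferase genes and 3 Ezh genes. The symbol rule also takes in Ezhip, which encodes an inhibitor of EZH2 and not an enzyme, and Kmt2e, whose protein has little or no enzyme activity. For some members, such as Hdac10, Prmt3, Prmt9 and Setd3, the main substrates named below are not histones.

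The study measured messenger RNA in mouse T helper cells with Affymetrix whole-transcript arrays and asked what Tet2 contributes when T helper cells become a subset. Tet2 converts the methyl group of cytosine in DNA to oxidized forms. There were 4 groups of 2 arrays: Tet2-deficient Th17 cells and Tet2-deficient Th1 cells from CD2(Cre)Tet2(f/f) mice, and wild-type Th17 cells and wild-type Th1 cells from Tet2(f/f) mice. Both genotypes therefore carried floxed Tet2 alleles, and they differed in a Cre transgene named for Cd2, a surface gene of lymphocytes. Culture conditions, and the age and sex of the mice, were not given in the sources used here. The arrays of a group are titled biological replicates, and the sources used here do not say whether they come from separate animals. The p-values set group differences against a spread estimated between arrays within groups and moderated across all genes.

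Acetylation of histone lysines loosens the packing of DNA and is laid down by acetyltransferases and removed by the zinc-dependent HDACs and the NAD-dependent sirtuins. Methylation of lysines and arginines serves as a binding site for other proteins, and its meaning depends on the residue: the KMT2 and SETD1 enzymes mark active promoters and enhancers, the EZH enzymes of Polycomb repressive complex 2 mark silenced genes, and the KDM enzymes remove such marks. In T helper cells, opposing active and Polycomb marks lie over the genes for the subset cytokines and master regulators, so these enzymes are part of how a subset keeps its program.

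All values are deposited log2 signals, on which a difference of 1 is a doubling, and each gene is read from the probe set with its highest mean. A probe set's signal depends on its own probes, so levels are set against each other only within a gene. Array medians lay between 6.53 and 6.55 on Th17 arrays and between 6.57 and 6.61 on Th1 arrays. Arrays of a group correlated at 0.990 to 0.994 across genes, which are not independent replicates. The T cell marker list (7 of 8 genes measured) was above the array median for 7 of 7 genes in every group. The mean log2 signal of the Th17 list (6 of 8 genes measured) lay between 8.99 and 9.30 on Th17 arrays and between 6.25 and 6.39 on Th1 arrays, and that of the 6-gene Th1 list between 8.29 and 8.41 on Th17 arrays and between 9.66 and 10.04 on Th1 arrays. The B cell, myeloid, NK, erythroid and CD8 lists had array means of 5.24 to 6.55, with 4 of 5 B cell genes and 1 of 4 erythroid genes measured. Of the 4 NK genes, 1 or 2 were above the array median on both arrays of each group. Among them, Eomes was at 8.18 to 8.26 on Th1 arrays and Klrd1 at 7.25 and 8.07 on Tet2-deficient Th17 arrays. In wild-type Th1 cells 1 CD8 gene and 1 B cell gene were also above the array median on both arrays. Tet2 itself had log2 signals of 8.34 and 8.39 in Tet2-deficient and 8.51 and 8.49 in wild-type Th17 cells, and 8.12 and 7.98 in Tet2-deficient and 8.14 and 8.02 in wild-type Th1 cells. The sources used here do not say which exons were floxed, so this probe set does not check the deletion. The female share of each RNA, taken from Xist on the linear scale with the Th1 arrays' mean at 0 and the highest array at 100%, was 14.7% and 100% on the Tet2-deficient Th17 arrays, 0.187% and 42.9% on the wild-type Th17 arrays, and between -0.131% and 0.106% on the Th1 arrays.

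A minority of the enzyme genes was called between the subsets in each genotype, and the called genes were higher in Th17 cells. In Tet2-deficient cells 14 of 66 were called higher in Th17 than in Th1 cells and 0 lower (limma, adjusted p under 0.05), against 6.37% of all genes higher, 3.81% lower and 10.2% in either direction. In wild-type cells 9 of 66 were called higher and 0 lower, against 4.99% of all genes higher, 3.43% lower and 8.42% in either direction. Every call other than those of Kdm7a and Kat6b was lost without at least 1 single array, and such a fit leaves 1 array in a group. With each array left out in turn, the median log2 fold change of the 66 genes ran from 0.130 to 0.210 in Tet2-deficient cells. In wild-type cells it ran from 0.101 to 0.254. The calls covered 16 genes in all. Kdm7a, Kat6b, Kmt2c, Ezh1, Kat2b, Hdac8 and Kdm5b were called in both genotypes, 7 of 66 against 3.36% of all genes, and 0 of 66 were called lower in both, against 1.78%. Kmt2e, Kdm2a, Setd5, Setdb2, Kdm5a, Kat7 and Prmt9 were called in Tet2-deficient cells, and Prmt3 and Setd2 in wild-type cells. A further quantile normalization left Kdm7a, Kat6b, Kmt2c, Ezh1, Kat2b, Hdac8, Kmt2e and Kdm2a called higher in Tet2-deficient cells. In wild-type cells it left Kdm7a, Kat6b, Kmt2c and Kat2b called higher, and the calls of Ezh1, Hdac8 and Kdm5b were lost there. The call in 1 genotype does not show a difference between genotypes: the test of that difference was called for none of the 66 genes, with a smallest unadjusted p of 0.0203 and a smallest adjusted p of 0.999 (limma).

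The median log2 fold change of Th17 over Th1 over the 66 genes was 0.14 in Tet2-deficient and 0.19 in wild-type cells, against -0.03 in both genotypes over all genes. Of the 66 genes, 50 were above 0 in Tet2-deficient cells, against 44.3% of all genes, and 52 in wild-type cells, against 45% of all genes. Most of these enzyme genes are well expressed, and genes with higher signals had a higher median towards Th17 cells as a class. Among the 9928 genes at or above the median level, the median log2 fold change was 0.08 in Tet2-deficient and 0.09 in wild-type cells, and the share called higher in Th17 cells was 11.3% in Tet2-deficient and 9.01% in wild-type cells. Of these expressed genes 60.9% were above 0 in Tet2-deficient and 64% in wild-type cells. Of the 60 enzyme genes at or above that level, 14 (23.3%) were called in Tet2-deficient and 9 (15%) in wild-type cells. The 6 genes below it were Ezhip, Hdac11, Hdac9, Kdm4d, Prmt8 and Sirt3, and none of them was called. After a further quantile normalization the medians of the 66 genes were 0.07 in Tet2-deficient and 0.08 in wild-type cells. Those over all genes were then -0.0047 in Tet2-deficient and -0.00042 in wild-type cells. Of the 66 genes, 39 were above 0 in Tet2-deficient and 44 in wild-type cells, and the share of all genes above 0 was not counted in that setting. In RNA of whole cell samples, fewer cells of a type and less RNA per cell cannot be told apart.

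Within a genotype, the arrays of the subsets did not overlap for 35 of 66 genes higher in Tet2-deficient Th17 cells (25.8% of all genes) and 9 lower (31.7%), and for 33 higher in wild-type Th17 cells (23.8%) and 5 lower (28.4%). Across genotypes, 25 of the 66 genes had all 4 Th17 signals above all 4 Th1 signals, against 12.7% of all genes and 23.1% of those at or above the median level. Only Kdm2b and Prmt8 had all 4 Th17 signals below all 4 Th1 signals, 2 of 66 against 11.9% of all genes. All 16 called genes were among the 25, an order that their choice as called genes favours. On wild-type Th17 replicate 1 alone, the Th17 array with a female share near that of the Th1 arrays, 27 of the 66 genes were above every Th1 array, against 23.9% of all genes, and 12 below, against 29.6%. With the female share as a covariate, chosen with earlier results known, the genes called were Kdm7a, Kat6b and Kat2b in Tet2-deficient cells, a count of 3, and Kdm7a, Kat6b, Kmt2c, Ezh1, Kat2b and Prmt3 in wild-type cells, a count of 6. Over all genes the same fit called 730 in Tet2-deficient and 1185 in wild-type cells, against 2020 in Tet2-deficient and 1671 in wild-type cells without the covariate. The log2 fold change was larger with the covariate for 12 of the 14 genes called in Tet2-deficient cells and 8 of the 9 called in wild-type cells, and the standard errors of the 14 genes were 0.16 to 0.26, against 0.11 to 0.19 without it. The median of the 66 genes with the covariate was 0.18 in Tet2-deficient and 0.19 in wild-type cells. All Th1 arrays lay near 0 in female share, so the covariate rests almost wholly on differences between Th17 arrays. Female share and subset cannot be fully told apart on these arrays, and the part of female share was not tested. The cell-cycle list of 31 measured genes had a median log2 fold change of Th17 over Th1 of 0.06 in Tet2-deficient and -0.26 in wild-type cells, and its part in these differences was not tested.

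**Figure D1:**
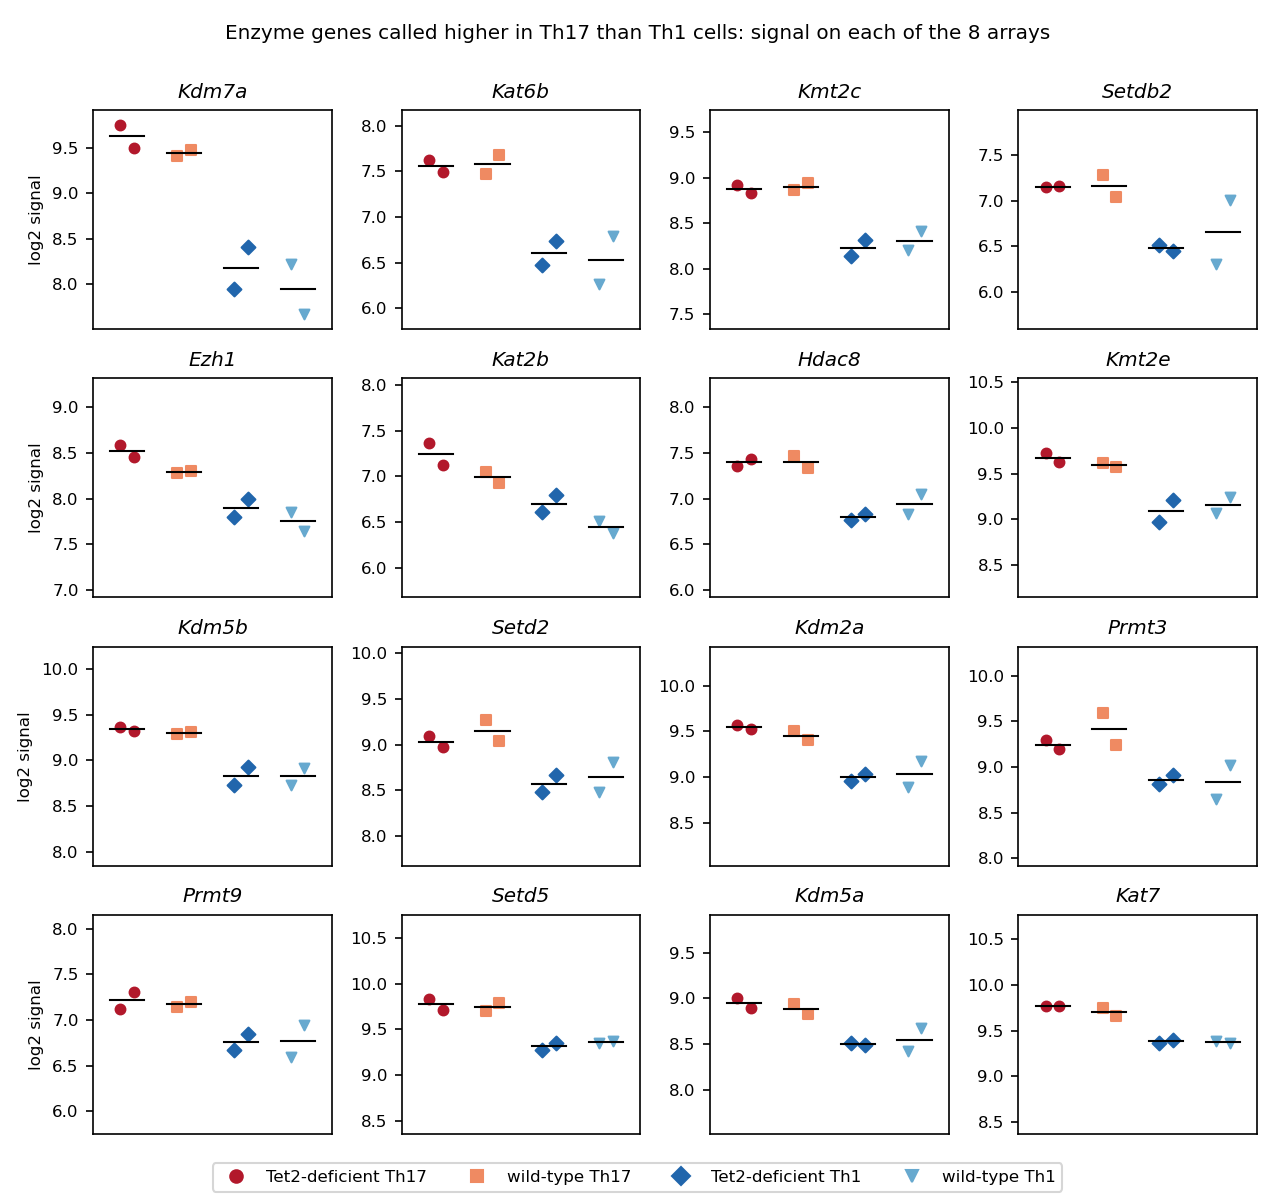
Log2 signal (vertical axis, each panel spanning the same number of log2 units) of the 16 enzyme genes called between the subsets. Points are the 2 arrays of each group and lines are group means; from left to right the groups are Tet2-deficient Th17, wild-type Th17, Tet2-deficient Th1 and wild-type Th1 cells, and in every panel all 4 Th17 points lie above all 4 Th1 points.

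The array plot shows that the difference of subset means was largest for Kdm7a, and that the wild-type Th1 arrays lay far apart for Setdb2. The 250 bases before the RefSeq transcript start (GRCm38.p6) are shown for the gene with the largest subset difference in the Kdm, Kat, Kmt2 and Ezh families, because TET enzymes act on methylated cytosine in CG dinucleotides and these windows show how much CG the promoters hold. CG dinucleotides are in capitals, each window is written 5′ to 3′ on the gene's strand, and for Kat6b it is the first of 2 windows.
Kdm7a chr6:39206774-39207023 (- strand): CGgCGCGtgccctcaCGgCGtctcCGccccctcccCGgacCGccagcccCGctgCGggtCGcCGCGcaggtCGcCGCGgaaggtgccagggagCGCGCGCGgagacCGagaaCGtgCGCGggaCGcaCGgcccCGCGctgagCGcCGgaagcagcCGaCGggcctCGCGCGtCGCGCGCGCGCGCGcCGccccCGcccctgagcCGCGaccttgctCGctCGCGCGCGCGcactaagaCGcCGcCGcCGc
Kat6b chr14:21499520-21499769 (+ strand): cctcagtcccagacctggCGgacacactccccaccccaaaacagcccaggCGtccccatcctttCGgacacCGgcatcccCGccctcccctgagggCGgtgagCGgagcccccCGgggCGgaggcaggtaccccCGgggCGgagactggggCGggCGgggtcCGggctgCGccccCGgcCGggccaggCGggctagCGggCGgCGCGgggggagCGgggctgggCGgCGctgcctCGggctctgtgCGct
Kmt2c chr5:25498784-25499033 (- strand): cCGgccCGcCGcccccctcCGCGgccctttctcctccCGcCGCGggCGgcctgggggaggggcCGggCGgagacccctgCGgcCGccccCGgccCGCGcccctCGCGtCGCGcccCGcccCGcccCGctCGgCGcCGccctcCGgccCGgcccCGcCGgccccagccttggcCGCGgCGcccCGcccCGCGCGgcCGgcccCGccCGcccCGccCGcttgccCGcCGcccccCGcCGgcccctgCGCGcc
Ezh1 chr11:101226464-101226713 (- strand): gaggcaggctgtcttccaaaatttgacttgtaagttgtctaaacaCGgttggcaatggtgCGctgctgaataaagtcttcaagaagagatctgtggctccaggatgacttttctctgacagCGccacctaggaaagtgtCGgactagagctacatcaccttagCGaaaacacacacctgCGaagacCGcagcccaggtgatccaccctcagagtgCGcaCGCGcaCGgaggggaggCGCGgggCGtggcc
The Kdm7a window held 56 CG dinucleotides, a count that 2 of the 32851 windows in the table reached (0.00609%). The Kmt2c window held 48 (0.186% of windows had as many or more), the Kat6b window 27 (8.56%) and the Ezh1 window 14 (29.4%). Over the 54 enzyme genes with a window, the median was 17 per window, against 6 over all windows, and 81.4% of their windows held 10 or more, against 37.8% of all windows. Among the other called genes with a window, the counts were 0 for Setd5, 6 and 5 for Kat2b, 6 for Hdac8 and 8 for Kat7. They were 13 for Kdm5b, 14 for Prmt9, 17 for Prmt3, 24 for Setdb2 and 31 for Setd2. The windows of expressed genes as a class were not counted apart. These are counts of letters, no methylation was measured here, and a link to the subset differences was not tested.

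The 8 Kat genes encode histone acetyltransferases. In Th17 against Th1 cells, 3 of them were called higher in Tet2-deficient and 2 in wild-type cells. Over all genes, 6.37% were called higher in Tet2-deficient and 4.99% in wild-type cells. The family median was 0.23 in Tet2-deficient and 0.32 in wild-type cells, and 0.09 in Tet2-deficient and 0.18 in wild-type cells after a further quantile normalization. Kat6b had log2 signals of 7.63 and 7.49 in Tet2-deficient and 7.47 and 7.68 in wild-type Th17 cells, against 6.47 and 6.73 in Tet2-deficient and 6.26 and 6.79 in wild-type Th1 cells. Kat6b (MORF; GRCm38 chromosome 14, 21499216 to 21672478) encodes a MYST-family enzyme that acetylates histone H3 in BRPF complexes, and its Th17 and Th1 arrays did not overlap in either genotype. The limma log2 fold change of Th17 over Th1 was 0.96 ± 0.17 in Tet2-deficient cells (adjusted p = 0.00301) and 1.05 ± 0.17 in wild-type cells (adjusted p = 0.00204). These are 1.94-fold and 2.07-fold differences, and both calls held when any single array was left out. Kat2b had log2 signals of 7.37 and 7.12 in Tet2-deficient and 7.05 and 6.93 in wild-type Th17 cells, against 6.61 and 6.80 in Tet2-deficient and 6.5 and 6.38 in wild-type Th1 cells. Kat2b (PCAF) is a catalytic subunit shared by the SAGA and ATAC coactivator complexes, and its arrays fell into 4 steps, with Tet2-deficient above wild-type cells within each subset. By limma, the log2 fold change of Th17 over Th1 was 0.54 ± 0.12 in Tet2-deficient cells (adjusted p = 0.0158) and 0.55 ± 0.12 in wild-type cells (adjusted p = 0.0185). The Kat2b call in Tet2-deficient cells was lost without Tet2-deficient Th1 replicate 1 (adjusted p = 0.14) or Tet2-deficient Th17 replicate 1 (adjusted p = 0.167), and that in wild-type cells without wild-type Th1 replicate 2 (0.0777), wild-type Th17 replicate 1 (0.0977) or wild-type Th17 replicate 2 (0.0654, limma adjusted p). Kat7 had log2 signals of 9.77 and 9.77 in Tet2-deficient and 9.75 and 9.65 in wild-type Th17 cells, against 9.36 and 9.40 in Tet2-deficient and 9.39 and 9.36 in wild-type Th1 cells. Kat7 (HBO1) is the MYST enzyme known for marking replication origins and gene starts. The limma log2 fold change of Kat7 was 0.39 ± 0.11 in Tet2-deficient cells (adjusted p = 0.0499) and 0.33 ± 0.11 in wild-type cells (adjusted p = 0.0971). It lay at the threshold in Tet2-deficient cells, and the call was lost when any 1 of the 4 Tet2-deficient or 2 wild-type Th17 arrays was left out (adjusted p 0.0641 to 0.233).

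The other 5 Kat genes were not called. Kat2a (GCN5), the paralog of Kat2b, was at 0.22 in Tet2-deficient and 0.31 in wild-type cells, with all 4 Th17 arrays (8.80 to 9.0) above the 4 Th1 arrays (8.52 to 8.77). Kat6a (MOZ), the paralog of Kat6b, was at 0.24 ± 0.14 in Tet2-deficient and 0.14 ± 0.14 in wild-type cells. Kat5 (TIP60), which acetylates histones at DNA breaks, had the smallest range of group means in the family, 0.09, and its Th17 arrays (7.80 to 8.06) overlapped its Th1 arrays (7.83 to 8.11). Kat8 and Kat14 had log2 fold changes of 0.14 and 0.12 in Tet2-deficient and 0.32 and 0.12 in wild-type cells.

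Among the 11 zinc-dependent deacetylase genes, Hdac8 was called, in both genotypes, and the other 10 were not. Hdac8 had log2 signals of 7.36 and 7.44 in Tet2-deficient and 7.47 and 7.34 in wild-type Th17 cells, against 6.77 and 6.83 in Tet2-deficient and 6.84 and 7.06 in wild-type Th1 cells. Hdac8 (X chromosome, 102284638 to 102505381) encodes the class I enzyme that also deacetylates the cohesin subunit SMC3. Its 4 Th17 arrays lay between 7.34 and 7.47 beside female shares of 0.187% to 100%. Between subsets, the limma log2 fold change (Th17 over Th1) was 0.60 ± 0.12 in Tet2-deficient cells (adjusted p = 0.00641) and 0.46 ± 0.12 in wild-type cells (adjusted p = 0.0318). The Tet2-deficient call was lost without Tet2-deficient Th1 replicate 1 (adjusted p = 0.0572) or Tet2-deficient Th17 replicate 2 (0.0552), and the wild-type call without wild-type Th1 replicate 1 (0.163), wild-type Th17 replicate 1 (0.149) or wild-type Th17 replicate 2 (0.0882, limma adjusted p).

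The other class I deacetylase genes, which act in the SIN3, NuRD, CoREST and NCOR complexes, were not called. Hdac1 was at 0.06 in Tet2-deficient and -0.06 in wild-type cells, with a 95% interval of -0.20 to 0.32 in Tet2-deficient and -0.32 to 0.20 in wild-type cells. Hdac2 was at 0.26 ± 0.15 in Tet2-deficient and 0.10 ± 0.15 in wild-type cells, and Hdac3 at 0.16 ± 0.14 in Tet2-deficient and 0.18 ± 0.14 in wild-type cells. The class IIa genes encode poorly catalytic deacetylases that hold MEF2 factors in check, and none of them was called between subsets. Hdac4 had signals of 8.85 and 8.49 in Tet2-deficient and 8.56 and 8.66 in wild-type Th17 cells, against 8.36 and 8.36 in Tet2-deficient and 8.29 and 8.37 in wild-type Th1 cells. No Hdac4 array of 1 subset overlapped the other, and the log2 fold changes of 0.31 ± 0.13 in Tet2-deficient and 0.28 ± 0.13 in wild-type cells did not pass (adjusted p = 0.169 in Tet2-deficient and 0.224 in wild-type cells, limma). Hdac7, the class IIa member prominent in thymocytes, was at -0.25 ± 0.13 in Tet2-deficient and 0.06 ± 0.13 in wild-type cells, and Hdac5 at 0.16 ± 0.12 in Tet2-deficient and 0.30 ± 0.12 in wild-type cells. Hdac9 was under the array median on every array (5.62 to 5.94). Hdac10, which acts mainly on polyamines, had the smallest range of group means of the family, 0.06.

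None of the 7 sirtuin genes was called. Sirt7, a nucleolar sirtuin, had signals of 8.15 and 8.17 in Tet2-deficient and 7.85 and 8.28 in wild-type Th17 cells, against 7.72 and 7.59 in Tet2-deficient and 7.81 and 7.48 in wild-type Th1 cells. Sirt2, which deacetylates tubulin and histone H4, had signals of 10.05 and 9.76 in Tet2-deficient and 9.57 and 9.89 in wild-type Th17 cells, against 9.48 and 9.46 in Tet2-deficient and 9.53 and 9.14 in wild-type Th1 cells. For both genes all Th17 arrays were above all Th1 arrays, but the arrays of a group also lay apart, most for Sirt7 in wild-type Th17 cells. The log2 fold change of Sirt7 was 0.50 ± 0.16 in Tet2-deficient and 0.42 ± 0.16 in wild-type cells (adjusted p = 0.0601 in Tet2-deficient and 0.119 in wild-type cells, limma). That of Sirt2 was 0.44 ± 0.16 in Tet2-deficient and 0.39 ± 0.16 in wild-type cells (adjusted p = 0.114 in Tet2-deficient and 0.158 in wild-type cells, limma), the largest range of group means in the family at 0.57. Sirt1, the nuclear sirtuin, was at 0.12 in Tet2-deficient and -0.07 in wild-type cells. The mitochondrial Sirt3 and Sirt5 were at 0.03 and 0.07 in Tet2-deficient and -0.12 and 0.07 in wild-type cells. The median of the Sirt family in wild-type cells, 0.02, turned to -0.03 after a further quantile normalization.

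Of the 5 Kmt2 genes, all but Kmt2e encode the large enzymes of the COMPASS complexes that methylate histone H3 at active genes. Kmt2c had log2 signals of 8.91 and 8.83 in Tet2-deficient and 8.86 and 8.94 in wild-type Th17 cells, against 8.14 and 8.31 in Tet2-deficient and 8.20 and 8.41 in wild-type Th1 cells. Kmt2c (MLL3; chromosome 5, 25271795 to 25498855), which marks enhancers, was higher on every Th17 array than on any Th1 array. On the log2 scale, the limma difference of Th17 over Th1 was 0.64 ± 0.12 in Tet2-deficient cells (adjusted p = 0.00606) and 0.59 ± 0.12 in wild-type cells (adjusted p = 0.0119). In Tet2-deficient cells its call was lost without Th1 replicate 1 (adjusted p = 0.068) or Th17 replicate 1 (0.0707) of that genotype, and in wild-type cells without wild-type Th1 replicate 1 (0.0755) or wild-type Th17 replicate 2 (0.0939, limma adjusted p). Kmt2e had log2 signals of 9.72 and 9.63 in Tet2-deficient and 9.62 and 9.58 in wild-type Th17 cells, against 8.97 and 9.21 in Tet2-deficient and 9.07 and 9.24 in wild-type Th1 cells. Kmt2e (MLL5) encodes a reader of histone methylation at promoters with little or no enzyme activity of its own. Its limma log2 fold change was 0.59 ± 0.13 in Tet2-deficient cells (adjusted p = 0.0123) and 0.44 ± 0.13 in wild-type cells (adjusted p = 0.0529). Without Tet2-deficient Th1 replicate 1, Th17 replicate 1 or Th17 replicate 2 the Tet2-deficient adjusted p was 0.118, 0.12 and 0.0532 (limma). Kmt2d (MLL4), the close paralog of Kmt2c, was at -0.09 ± 0.13 in Tet2-deficient and 0.17 ± 0.13 in wild-type cells, and Kmt2a (MLL1) at 0.09 ± 0.12 in Tet2-deficient and 0.03 ± 0.12 in wild-type cells. Neither passed, and the Kmt2d intervals were -0.37 to 0.19 in Tet2-deficient and -0.11 to 0.44 in wild-type cells. The difference between Kmt2c and Kmt2d was not tested. The family median in Tet2-deficient cells, 0.09, was -0.01 after a further quantile normalization.

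The Setd genes share a SET domain and differ in substrate. Setdb2 had log2 signals of 7.14 and 7.16 in Tet2-deficient and 7.28 and 7.04 in wild-type Th17 cells, against 6.51 and 6.45 in Tet2-deficient and 6.30 and 7.01 in wild-type Th1 cells. Setdb2, which encodes a methyltransferase of repressive lysine methylation, showed the widest gap between 2 arrays of a group among the 16 called genes, in wild-type Th1 cells. The limma log2 fold change of Th17 over Th1 was 0.67 ± 0.18 in Tet2-deficient cells (adjusted p = 0.0369) and 0.50 ± 0.18 in wild-type cells (adjusted p = 0.112). The Tet2-deficient call was lost without any 1 of the 4 Tet2-deficient arrays (adjusted p 0.138 to 0.158). Setd5 had log2 signals of 9.83 and 9.71 in Tet2-deficient and 9.70 and 9.78 in wild-type Th17 cells, against 9.27 and 9.35 in Tet2-deficient and 9.35 and 9.37 in wild-type Th1 cells. Setd5 encodes a chromatin protein that binds the HDAC3 and NCOR complex. By limma, the log2 fold change of Th17 over Th1 was 0.46 ± 0.12 in Tet2-deficient cells (adjusted p = 0.0271) and 0.38 ± 0.12 in wild-type cells (adjusted p = 0.0678). Its call, too, was lost without any 1 of the 4 Tet2-deficient arrays (adjusted p 0.0716 to 0.217). Setd2 had log2 signals of 9.10 and 8.97 in Tet2-deficient and 9.27 and 9.04 in wild-type Th17 cells, against 8.48 and 8.66 in Tet2-deficient and 8.48 and 8.81 in wild-type Th1 cells. Setd2, which lays down the trimethyl mark of transcribed gene bodies, was called in wild-type cells. Between subsets, the limma log2 fold change (Th17 over Th1) was 0.46 ± 0.14 in Tet2-deficient cells (adjusted p = 0.0629) and 0.51 ± 0.14 in wild-type cells (adjusted p = 0.0479). Its second probe set gave 0.36 in Tet2-deficient and 0.34 in wild-type cells, and with that probe set the wild-type adjusted p was 0.121 (limma). The wild-type call of Setd2 was also lost without any 1 array other than wild-type Th1 replicate 2 (adjusted p 0.0585 to 0.238).

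Setdb1, the repressive methyltransferase of retroelements, had signals of 9.05 and 8.97 in Tet2-deficient and 8.94 and 8.85 in wild-type Th17 cells, against 8.65 and 8.68 in Tet2-deficient and 8.57 and 8.84 in wild-type Th1 cells. The subsets did not overlap, and the log2 fold changes of 0.35 ± 0.13 in Tet2-deficient and 0.19 ± 0.13 in wild-type cells did not pass (adjusted p = 0.104 in Tet2-deficient and 0.388 in wild-type cells, limma). Setd1a, a histone methyltransferase of promoters, had the smallest range of group means of the family, 0.17. It was at -0.01 in Tet2-deficient and 0.17 in wild-type cells. Setd7, which monomethylates histone H3 and other proteins, was at 0.20 ± 0.14 in Tet2-deficient and 0.24 ± 0.14 in wild-type cells.

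Of the Polycomb enzymes, Ezh1 was called in both genotypes and Ezh2 in neither, and the difference between the 2 genes was not tested. Ezh1 had log2 signals of 8.59 and 8.45 in Tet2-deficient and 8.28 and 8.30 in wild-type Th17 cells, against 7.80 and 8.0 in Tet2-deficient and 7.85 and 7.65 in wild-type Th1 cells. Ezh1 (chromosome 11, 101191115 to 101226463), the PRC2 enzyme typical of resting cells, was higher on every Th17 array than on any Th1 array. On the log2 scale, the limma difference of Th17 over Th1 was 0.62 ± 0.13 in Tet2-deficient cells (adjusted p = 0.00799) and 0.54 ± 0.13 in wild-type cells (adjusted p = 0.0207). The Tet2-deficient call was lost without Tet2-deficient Th1 replicate 1 (adjusted p = 0.0865) or Tet2-deficient Th17 replicate 1 (0.0933), and the wild-type call without wild-type Th1 replicate 2 (0.0924), wild-type Th17 replicate 1 (0.0729) or wild-type Th17 replicate 2 (0.112, limma adjusted p). Ezh2 had log2 signals of 11.05 and 11.12 in Tet2-deficient and 11.09 and 10.96 in wild-type Th17 cells, against 10.70 and 10.89 in Tet2-deficient and 10.83 and 11.09 in wild-type Th1 cells. Ezh2, the PRC2 enzyme of dividing cells, overlapped between subsets, and its log2 fold change was 0.29 ± 0.14 in Tet2-deficient and 0.06 ± 0.14 in wild-type cells (adjusted p = 0.212 in Tet2-deficient and 0.815 in wild-type cells, limma). Beside these, the cell-cycle list had medians of 0.06 in Tet2-deficient and -0.26 in wild-type cells in the same contrasts. Ezhip was under the array median on every array, at 5.91 to 6.21.

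The 14 demethylase genes held both the largest rise and the largest negative value of the 66. Kdm7a had log2 signals of 9.75 and 9.49 in Tet2-deficient and 9.41 and 9.48 in wild-type Th17 cells, against 7.95 and 8.41 in Tet2-deficient and 8.23 and 7.67 in wild-type Th1 cells. Kdm7a (JHDM1D, chromosome 6, 39136620 to 39206773) encodes a PHD and JmjC protein that binds histone methylation at promoters and removes repressive dimethyl marks of histones. Its Th17 arrays lay between 9.41 and 9.75 and its Th1 arrays between 7.67 and 8.41. The limma log2 fold change of Th17 over Th1 was 1.45 ± 0.19 in Tet2-deficient cells (adjusted p = 0.000436) and 1.49 ± 0.19 in wild-type cells (adjusted p = 0.000397). These are 2.72-fold and 2.81-fold differences, and both calls held when any single array was left out. A second probe set of Kdm7a gave 1.68 in Tet2-deficient and 1.79 in wild-type cells. Kdm5b had log2 signals of 9.36 and 9.32 in Tet2-deficient and 9.29 and 9.31 in wild-type Th17 cells, against 8.73 and 8.93 in Tet2-deficient and 8.73 and 8.92 in wild-type Th1 cells. Kdm5b (JARID1B) removes methyl groups from the lysine that the KMT2 enzymes modify. By limma, the log2 fold change of Th17 over Th1 was 0.51 ± 0.12 in Tet2-deficient cells (adjusted p = 0.0209) and 0.47 ± 0.12 in wild-type cells (adjusted p = 0.0351). The Tet2-deficient call was lost without Tet2-deficient Th1 replicate 1 (adjusted p = 0.163), Th17 replicate 1 (0.145) or Th17 replicate 2 (0.094) of that genotype, and the wild-type call without wild-type Th1 replicate 1 or any 1 of the 4 Th17 arrays (adjusted p 0.0604 to 0.162).

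Of the other demethylase genes, Kdm2a and Kdm5a were called in Tet2-deficient cells. Kdm2a had log2 signals of 9.57 and 9.53 in Tet2-deficient and 9.50 and 9.41 in wild-type Th17 cells, against 8.96 and 9.03 in Tet2-deficient and 8.89 and 9.18 in wild-type Th1 cells. Kdm2a binds unmethylated CG dinucleotides through a CXXC domain. Between subsets, the limma log2 fold change (Th17 over Th1) was 0.55 ± 0.13 in Tet2-deficient cells (adjusted p = 0.0173) and 0.42 ± 0.13 in wild-type cells (adjusted p = 0.0642). Its Tet2-deficient call was lost without any 1 of the 4 Tet2-deficient arrays (adjusted p 0.0597 to 0.130). Kdm5a had log2 signals of 9.0 and 8.89 in Tet2-deficient and 8.94 and 8.83 in wild-type Th17 cells, against 8.51 and 8.49 in Tet2-deficient and 8.43 and 8.67 in wild-type Th1 cells. Kdm5a is the paralog of Kdm5b with the same substrate. On the log2 scale, the limma difference of Th17 over Th1 was 0.44 ± 0.12 in Tet2-deficient cells (adjusted p = 0.0423) and 0.34 ± 0.12 in wild-type cells (adjusted p = 0.119). This call was lost without any 1 of the 4 Tet2-deficient or 2 wild-type Th17 arrays (adjusted p 0.0528 to 0.258).

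Kdm2b, the paralog of Kdm2a that brings a variant Polycomb repressive complex 1 to CG-rich promoters, had negative values in both genotypes. Kdm2b had log2 signals of 8.49 and 8.42 in Tet2-deficient and 8.25 and 8.50 in wild-type Th17 cells, against 8.94 and 8.87 in Tet2-deficient and 8.67 and 9.03 in wild-type Th1 cells. All 4 Th17 arrays were below all 4 Th1 arrays. The limma log2 fold change of Th17 over Th1 was -0.45 ± 0.14 in Tet2-deficient cells (adjusted p = 0.0665) and -0.47 ± 0.14 in wild-type cells (adjusted p = 0.0613). Neither value passed. Both passed as lower in Th17 cells after a further quantile normalization (adjusted p = 0.0120 in Tet2-deficient and 0.0126 in wild-type cells, limma), among genes at or above the median level (0.0449 in Tet2-deficient and 0.0417 in wild-type cells) and without wild-type Th1 replicate 1 (0.0361 in Tet2-deficient and 0.0302 in wild-type cells). The Tet2-deficient value also passed on only the arrays compared (0.0287) and without wild-type Th1 replicate 2 (0.0359, limma adjusted p). Kdm4a, Kdm4c and Kdm3b, which remove methyl groups linked to repression, were at 0.38 ± 0.11, 0.49 ± 0.15 and 0.13 ± 0.12 in Tet2-deficient and 0.34 ± 0.11, 0.32 ± 0.15 and 0.28 ± 0.12 in wild-type cells. None of the 3 passed, although the adjusted p of Kdm4c and Kdm4a in Tet2-deficient cells was 0.0515 and 0.0541 (limma). Kdm1a (LSD1) was at 0.12 in Tet2-deficient and 0.20 in wild-type cells, and Kdm4d, under the array median on every array, at 0.04 in Tet2-deficient and -0.08 in wild-type cells.

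The 8 Prmt genes held 1 call in each genotype. Prmt3 had log2 signals of 9.30 and 9.20 in Tet2-deficient and 9.59 and 9.24 in wild-type Th17 cells, against 8.81 and 8.91 in Tet2-deficient and 8.65 and 9.02 in wild-type Th1 cells. Prmt3 is the cytoplasmic methyltransferase of a small-subunit ribosomal protein. By limma, the log2 fold change of Th17 over Th1 was 0.39 ± 0.15 in Tet2-deficient cells (adjusted p = 0.14) and 0.58 ± 0.15 in wild-type cells (adjusted p = 0.0374). The wild-type call was lost when any 1 array other than wild-type Th1 replicate 2 or wild-type Th17 replicate 2 was left out (adjusted p 0.0508 to 0.209). Prmt9 had log2 signals of 7.12 and 7.31 in Tet2-deficient and 7.14 and 7.20 in wild-type Th17 cells, against 6.67 and 6.84 in Tet2-deficient and 6.59 and 6.94 in wild-type Th1 cells. Prmt9 makes symmetric dimethylarginine on a splicing factor. The limma log2 fold change was 0.46 ± 0.14 in Tet2-deficient cells (adjusted p = 0.04999) and 0.40 ± 0.14 in wild-type cells (adjusted p = 0.0881), so the call sat at the threshold and was lost without any 1 of the 4 Tet2-deficient or 2 wild-type Th17 arrays (adjusted p 0.0635 to 0.275). The main asymmetric and symmetric arginine methyltransferases, Prmt1 and Prmt5, were at 0.09 and 0.07 in Tet2-deficient and 0.25 and -0.01 in wild-type cells. Prmt6 had the smallest range of group means of the family, 0.09, and Prmt8, a gene of the brain, was under the array median on every array (4.98 to 5.22). The family median in Tet2-deficient cells, 0.02, was -0.06 after a further quantile normalization.

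**Figure D2:**
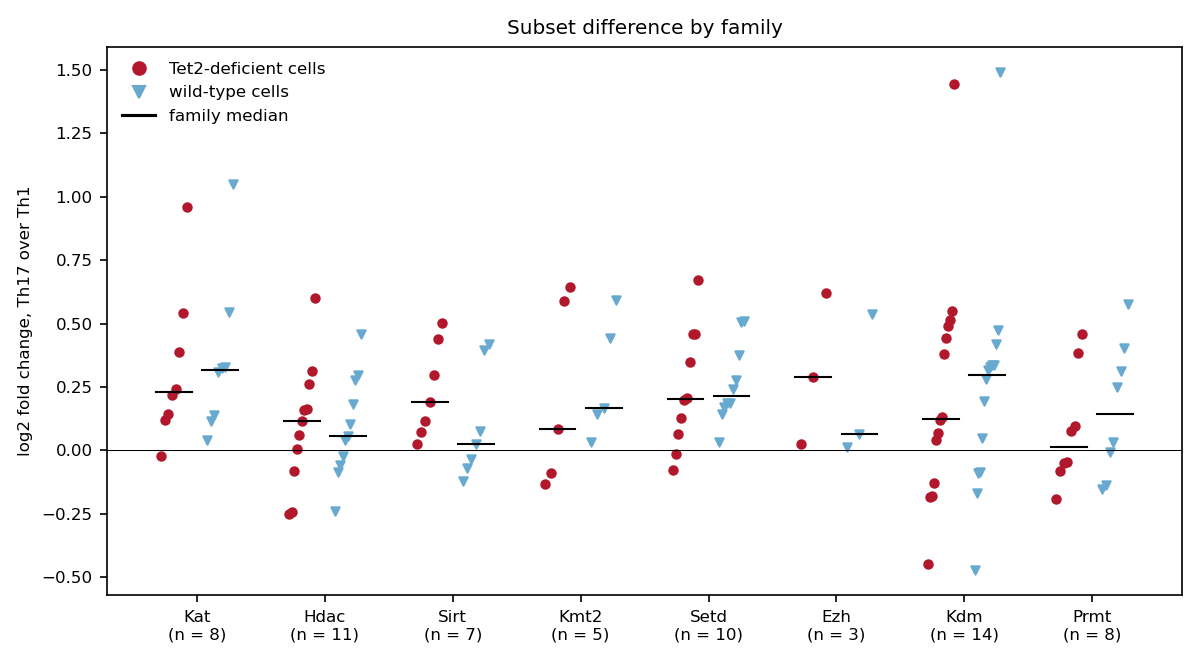
Log2 fold change of Th17 over Th1 (vertical axis) for each enzyme gene, by family; circles are Tet2-deficient cells, triangles wild-type cells and black lines family medians. Kdm7a is the highest point of the plot in both genotypes, and the Kat medians are 0.23 in Tet2-deficient and 0.32 in wild-type cells.

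In Tet2-deficient cells the calls were 3 of 8 Kat genes, 4 of 14 Kdm genes, 2 of 5 Kmt2 genes, 2 of 10 Setd genes, 1 of 3 Ezh genes, 1 of 11 Hdac genes, 1 of 8 Prmt genes and 0 of 7 Sirt genes. In wild-type cells they were 2 of 8 Kat genes, 2 of 14 Kdm genes, 1 gene each of the Kmt2, Setd, Ezh, Hdac and Prmt families and 0 Sirt genes. Over all genes 6.37% were called higher in Tet2-deficient and 4.99% in wild-type cells, and every family call other than those of Kdm7a and Kat6b was lost without at least 1 single array. In the family plot every family median lay above 0. The medians ran from 0.02 (Prmt) to 0.29 (Ezh) in Tet2-deficient and from 0.02 (Sirt) to 0.32 (Kat) in wild-type cells. After a further quantile normalization the Kmt2 and Prmt medians in Tet2-deficient cells and the Sirt median in wild-type cells were below 0. The Kdm median was 0.12 in Tet2-deficient and 0.30 in wild-type cells, the Setd median 0.20 in Tet2-deficient and 0.22 in wild-type cells, the Ezh median 0.29 in Tet2-deficient and 0.06 in wild-type cells, and the Hdac median 0.12 in Tet2-deficient and 0.06 in wild-type cells. After a further quantile normalization the Kdm median was 0.07 in Tet2-deficient and 0.16 in wild-type cells, the Setd median 0.14 in both genotypes, the Ezh median 0.24 in Tet2-deficient and 0.08 in wild-type cells and the Hdac median 0.04 in Tet2-deficient and 0.02 in wild-type cells.

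**Figure D3:**
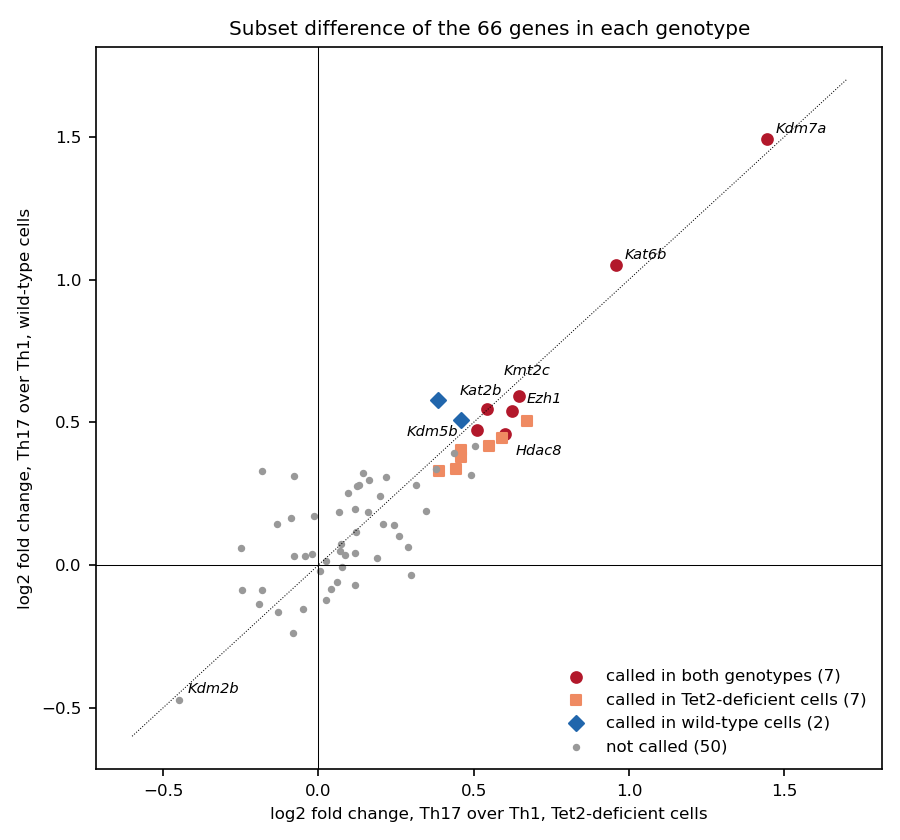
Log2 fold change of Th17 over Th1 for the 66 enzyme genes, in Tet2-deficient cells (horizontal axis) and in wild-type cells (vertical axis); the dotted line marks equal values and marker shapes give the genotype of the call. The 16 called genes lie in the upper right and Kdm2b in the lower left.

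The scatter of the 2 genotypes shows how alike the subset differences were in Tet2-deficient and wild-type cells, which come from separate arrays. Pearson's r across the 66 genes was 0.88, against 0.81 across all genes, with genes as points that share the arrays of each contrast. The sign was the same for 50 of 66 genes (75.8%), against 74.5% of all genes. The 7 shared calls made up 50% of the Tet2-deficient and 77.8% of the wild-type calls, against 50.6% of the Tet2-deficient and 61.2% of the wild-type calls over all genes.

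None of the 66 enzyme genes was called between the genotypes. In Th1 cells 0 of 66 passed, against 0.00504% of all genes, and in Th17 cells 0 of 66, against 0% (limma, adjusted p under 0.05). The mean of both subsets and the difference between them gave 0 of 66 each, against 0% of all genes in each. At an unadjusted p under 0.05 the counts were 3 of 66 in Th1 cells (all genes 6.05%), 3 of 66 in Th17 cells (4.15%), 5 of 66 for the mean (5.49%) and 2 of 66 for the difference (4.5%). The median log2 fold change of the 66 genes was 0.03 in Th1 and 0.04 in Th17 cells, against 0.01 over all genes in both. For the mean of both subsets 40 of 66 genes were above 0 (55.2% of all genes), and for the difference 38 of 66 (49.9%). In Th1 cells the arrays of the genotypes did not overlap for 11 genes higher (19.6% of all genes) and 4 lower (13.7%), and in Th17 cells for 16 higher (18.8%) and 4 lower (14.1%). On the probe sets used, the 95% intervals of all 66 genes lay between -0.57 and 0.65 in Th1 cells and between -0.65 and 0.60 in Th17 cells. These limits do not cover second probe sets. That of Setd3 gave -0.44 ± 0.13 in Th1 cells (adjusted p = 0.771, limma) and -0.05 ± 0.13 in Th17 cells.

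**Figure D4:**
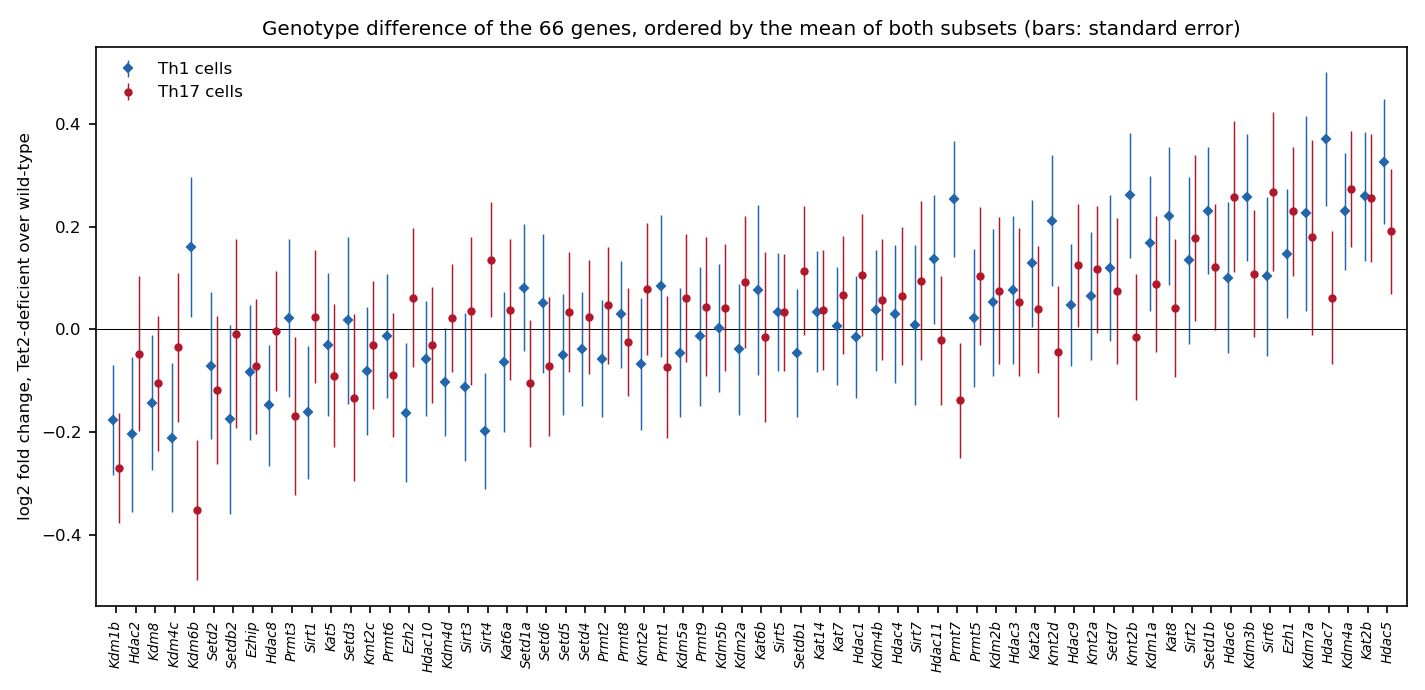
Log2 fold change of Tet2-deficient over wild-type cells (vertical axis) for each of the 66 enzyme genes (horizontal axis), ordered by the mean of both subsets. Diamonds are Th1 cells, circles Th17 cells and bars standard errors; no gene was called, and Kdm1b and Hdac5 stand at the ends of the order.

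The genotype plot places a few genes on the same side of 0 in both subsets. Kdm4a had log2 signals of 8.76 and 8.76 in Tet2-deficient against 8.43 and 8.55 in wild-type Th17 cells, and 8.35 and 8.42 in Tet2-deficient against 8.18 and 8.13 in wild-type Th1 cells. Its mean log2 fold change was 0.25 ± 0.08, with the smallest unadjusted p of the 66 genes (0.00848) and an adjusted p of 0.895 (limma). Hdac5 had 7.75 and 7.52 in Tet2-deficient against 7.37 and 7.52 in wild-type Th17 cells, and 7.40 and 7.54 in Tet2-deficient against 7.13 and 7.16 in wild-type Th1 cells, a mean of 0.26 ± 0.09. Kat2b, whose signals are given above, had a mean of 0.26 ± 0.09. Kdm1b (LSD2), a histone demethylase, had the lowest mean of the 66 genes on the probe sets used, at -0.22 ± 0.08. Its signals were 7.21 and 7.16 in Tet2-deficient against 7.48 and 7.43 in wild-type Th17 cells, and 7.39 and 7.34 in Tet2-deficient against 7.55 and 7.53 in wild-type Th1 cells. The second probe set of Setd3 had a mean of -0.25 ± 0.09. The arrays of the genotypes did not overlap in either subset for Hdac5, Kat2b, Kdm3b and Kdm4a, which were higher in Tet2-deficient cells (4 of 66, 6.06%, against 3.8% of all genes), and for Kdm1b, which was lower (1 of 66, against 1.94%). The other large mean values were 0.22 for Hdac7 and 0.20 for Kdm7a on the positive side, and -0.13 for Hdac2, -0.12 for Kdm8, -0.12 for Kdm4c and -0.10 for Kdm6b on the negative side.

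In Th1 cells the largest positive values belonged to Hdac7, Hdac5, Kmt2b, Kat2b and Kdm3b. Hdac7 had log2 signals of 9.73 and 9.50 in Tet2-deficient and 9.23 and 9.26 in wild-type Th1 cells, which did not overlap. Its log2 fold change was 0.37 ± 0.13 (95% interval 0.09 to 0.65, adjusted p = 0.794, limma). The values of Hdac5, Kmt2b, Kat2b and Kdm3b were 0.33, 0.26, 0.26 and 0.26. On the negative side Kdm4c was at -0.21, Hdac2 at -0.20, Sirt4 at -0.20, Kdm1b at -0.18 and Setdb2 at -0.17. Wild-type Th1 replicate 2 set the sign of 3 of these: without it Kdm4c was at 0.0029, Hdac2 at 0.036 and Setdb2 at 0.18.

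In Th17 cells the largest negative value was that of Kdm6b (JMJD3), which removes the Polycomb methyl mark. Its signals were 9.04 and 8.92 in Tet2-deficient and 9.19 and 9.47 in wild-type Th17 cells, without overlap, and 9.23 and 9.10 in Tet2-deficient and 8.89 and 9.11 in wild-type Th1 cells, with overlap. The log2 fold change was -0.35 ± 0.14 in Th17 cells (95% interval -0.65 to -0.06) and 0.16 ± 0.14 in Th1 cells, and neither passed (adjusted p = 1 in Th17 and 0.901 in Th1 cells, limma). The other negative values were -0.27 for Kdm1b, -0.17 for Prmt3, -0.14 for Prmt7 and -0.13 for Setd3. Prmt3 was at 0.0031 without wild-type Th17 replicate 1, and Setd3, a methyltransferase of actin, at 0.023 without Tet2-deficient Th17 replicate 2. The positive values were led by Kdm4a at 0.27, Sirt6 at 0.27, the X-linked Hdac6 at 0.26, Kat2b at 0.26 and Ezh1 at 0.23. For Hdac6 the wild-type Th17 arrays were 6.71 and 7.18 beside female shares of 0.187% and 42.9%, and the Tet2-deficient Th17 arrays 7.27 and 7.15 beside 14.7% and 100%.

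The difference of the 2 genotype effects, Th17 minus Th1, was largest for Kdm6b at -0.51 ± 0.19 (95% interval -0.93 to -0.09, unadjusted p = 0.0203, adjusted p = 0.999, limma). Prmt7, which forms monomethylarginine, followed at -0.39 ± 0.16, with signals of 8.0 and 8.0 in Tet2-deficient against 8.06 and 8.22 in wild-type Th17 cells, and 8.10 and 8.07 in Tet2-deficient against 7.82 and 7.83 in wild-type Th1 cells. Prmt7 was thus lower in Tet2-deficient than in wild-type Th17 arrays and higher in Tet2-deficient than in wild-type Th1 arrays, and neither the effects nor their difference passed. Hdac7, Kmt2b and Kmt2d were at -0.31, -0.28 and -0.25, and on the positive side Sirt4 was at 0.33, Ezh2 at 0.22, Sirt1 at 0.19, Kdm4c at 0.18 and Setdb2 at 0.17. The cell-cycle list had genotype medians of 0.09 in Th17 and -0.26 in Th1 cells beside these, and its part was not tested. Without wild-type Th1 replicate 2, Kdm4c was at -0.04 and Setdb2 at -0.19.

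A further 95 genes were taken from 8 lists. They were partners of these enzymes, bromodomain readers, and other methyltransferases, demethylases and acetyltransferases. Between genotypes 0 of 95 were called in either subset. Between subsets, 12 of 95 were called higher and 1 lower in Th17 cells in each genotype. Over all genes, 6.37% were called higher and 3.81% lower in Tet2-deficient and 4.99% higher and 3.43% lower in wild-type cells. Among genes at or above the median level, 11.3% were called higher in Tet2-deficient and 9.01% in wild-type cells. The medians of the 95 genes were 0.09 in Tet2-deficient and 0.14 in wild-type cells. Those of genes at or above the median level were 0.08 in Tet2-deficient and 0.09 in wild-type cells. The calls of the 95 genes were not read under the alternatives. Phc3, a subunit of Polycomb repressive complex 1, had signals of 9.17 and 8.94 in Tet2-deficient and 9.77 and 9.34 in wild-type Th17 cells, against 7.97 and 8.41 in Tet2-deficient and 8.14 and 8.56 in wild-type Th1 cells. Pcgf5, which defines a variant of the same complex, had 8.64 and 8.58 in Tet2-deficient and 8.82 and 8.69 in wild-type Th17 cells, against 9.12 and 9.59 in Tet2-deficient and 9.59 and 9.50 in wild-type Th1 cells. Phc3 rose in both genotypes, by 0.87 ± 0.19 in Tet2-deficient and 1.20 ± 0.19 in wild-type cells, and Pcgf5 was lower in both, at -0.75 ± 0.15 in Tet2-deficient and -0.78 ± 0.15 in wild-type cells (adjusted p at most 0.0134, limma). Among other methyltransferases, Nsd3 and Kmt5b were called in both genotypes, at 0.52 ± 0.12 and 0.57 ± 0.13 in Tet2-deficient and 0.84 ± 0.12 and 0.55 ± 0.13 in wild-type cells. Jmjd1c, a JmjC gene of the Kdm3 family, was at 0.84 ± 0.13 in Tet2-deficient and 0.54 ± 0.13 in wild-type cells, and Ep300, the acetyltransferase of active enhancers, at 0.58 ± 0.13 in Tet2-deficient and 0.49 ± 0.13 in wild-type cells, both called in both genotypes. Ogt, the sugar transferase bound by TET proteins, was at 0.59 ± 0.13 in Tet2-deficient and 0.62 ± 0.13 in wild-type cells, and Tbl1xr1, a subunit of the HDAC3 corepressor complex, at 0.57 ± 0.12 in Tet2-deficient and 0.61 ± 0.12 in wild-type cells, again called in both. Ash2l, Psip1, Jmjd8, Mta3 and Sap30 were called in Tet2-deficient cells (0.40 to 0.57), and Aebp2, Ehmt1, Ncoa3, Gps2 and Brd7 in wild-type cells (0.44 to 0.63). The PRC2 partner list held 0 calls in Tet2-deficient and 1 in wild-type cells among 11 genes, Ezhip included, and the bromodomain list likewise 0 in Tet2-deficient and 1 in wild-type cells among 8.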

How the data were processed

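Per the submitters' processing notes the authors used GCOS, RMA and Affymetrix Expression Console, and the deposited values are log2 probe-set signals of 8 arrays, used without further scaling because RMA normalizes arrays to one another. Of 35556 probe sets, 21789 carried a single symbol in the platform annotation and 21698 of these matched a RefSeq gene of GRCm38. The highest-mean probe set stood for each of the 993 genes with several, which left 19856 genes. Some genes were not analysed here. All genes were fitted with limma 3.58.1 in R 4.3.3 (4 group means, eBayes with trend, 4 residual and 8.33 prior degrees of freedom), two-sided, with Benjamini-Hochberg adjustment over 19856 genes and calls under 0.05. The method was tested on simulated data. The genes, lists, promoter windows and the female-share covariate were chosen with earlier results of these data known. Named were 27 genes fixed by name, every called gene and the 5 largest values in each direction of each genotype contrast. The extremes of each family and up to 3 genes per list of partners, readers and other enzymes were also named. The second probe sets, and some paralogs, were added after their values were seen. Alternatives were a replicate block, only the arrays compared, a filter at the median level, other probe-set rules, quantile normalization, centring, eBayes without trend or robust, the female-share covariate and leaving out each array.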

Additional observations from a re-analysis of the deposited data

How the results depend on the processing

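The genotype comparisons gave 0 called enzyme genes under every alternative run. Between subsets, Kdm7a and Kat6b were called in both genotypes under all 18 alternatives, and Kat2b under all 10 that kept every array. The number called in Tet2-deficient cells (14) was 9 after a further quantile normalization (8 higher and 1, Kdm2b, lower in Th17 cells) and 3 with the female-share covariate, where all genes called numbered 2020, 1632 and 730, and it was 18 on only the arrays compared (2348 of all genes), 18 with centred arrays (2197) and 19 of 60 among genes at or above the median level (1903). The number called in wild-type cells (9) was 5 after quantile normalization (4 higher and Kdm2b lower) and 5 in a fit on only the arrays compared (1671, 1294 and 1104 of all genes), 11 with centred arrays (1784) and 13 of 60 among genes at or above the median level (1562). The medians were 0.073 in Tet2-deficient and 0.080 in wild-type cells after quantile normalization. The causes were not tested. Leaving out 1 array at a time, the medians ran from 0.130 to 0.210 in Tet2-deficient and from 0.101 to 0.254 in wild-type cells. The genotype medians ran from -0.017 to 0.075 in Th1 cells, 0.011 to 0.061 in Th17 cells, -0.011 to 0.050 for their mean and -0.020 to 0.058 for their difference. Signs turned without wild-type Th1 replicate 2 for Kdm4c (leave-one-out range -0.42 to 0.0029), Hdac2 (-0.44 to 0.036) and Setdb2 (-0.53 to 0.18) in Th1 cells and for Kdm4c (-0.038 to 0.39) and Setdb2 (-0.19 to 0.52) in the difference of genotype effects, without Tet2-deficient Th17 replicate 2 for Setd3 in Th17 cells (-0.29 to 0.023), and without wild-type Th17 replicate 1 for Prmt3 in Th17 cells (-0.34 to 0.0031). The mean and the difference of the genotype effects were not run on only the arrays compared.

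Replicate numbers are shared between groups, but the labels do not say that they pair samples, and deviations of same-numbered arrays correlated between -0.186 and 0.0604 across pairs of groups. With replicate number as a block the counts were 11 in Tet2-deficient and 6 in wild-type cells, and 0 in the genotype comparisons. With 2 arrays a group, the standard errors given limit what could be called, and a single array decides most calls near the threshold.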

Other observations

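The enzyme genes with a second probe set differed in how alike the readings were. The second probe set of Setd3, which encodes a methyltransferase of actin, had log2 signals of 8.46 and 8.54 in Tet2-deficient and 8.55 and 8.55 in wild-type Th17 cells, against 7.99 and 7.87 in Tet2-deficient and 8.23 and 8.51 in wild-type Th1 cells. Its Th17 minus Th1 difference was 0.57 in Tet2-deficient and 0.18 in wild-type cells, where the first probe set gave 0.13 in Tet2-deficient and 0.28 in wild-type cells. With the lowest probe set of each gene in the fit, Setd3 was called in Tet2-deficient cells (adjusted p = 0.0137, limma), where its first probe set was not, and not in wild-type cells (0.419). The second probe set of Hdac4 gave 0.34 in Tet2-deficient and 0.13 in wild-type cells, and that of Hdac1 0.08 in Tet2-deficient and -0.02 in wild-type cells. The second probe set of Kmt2d, at 6.82 to 7.28 on all 8 arrays, gave 0.07 in Tet2-deficient and 0.26 in wild-type cells, and that of Setd1b 0.02 in Tet2-deficient and 0.06 in wild-type cells. These readings were looked at after the values were seen, and of the other 4 genes none was called with its second probe set.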
